A study of Mus musculus with 9 samples.

Results

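A set of 8 genes that mark the step from nephron progenitor to early nephron epithelium were followed in RNA-seq of whole mouse kidneys at embryonic stage E15.5. They are the transcription factor genes Lhx1, Pax8 and Pou3f3, the cyclin gene Ccnd1, the cadherin genes Cdh6, Cdh1 and Cdh2, and Bmper, which encodes a secreted BMP-binding protein. The genes were taken by symbol, and each of the 8 was found at 1 of the 24138 loci of the deposited table. The Ccnd1 locus is joined with the microRNA gene Mir3962 in that table, so its value covers both.

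The kidneys came from 3 crosses of Ntn1fl/fl with Foxd1GC/+;Ntn1fl/+ mice, and every kidney carries at least 1 floxed allele of Ntn1, the gene for the secreted guidance cue netrin-1. Wild-type kidneys (WT) were Ntn1fl/fl with no Cre, heterozygous kidneys (HET) were Foxd1GC/+;Ntn1fl/+, and homozygous kidneys (MUT) were Foxd1GC/+;Ntn1fl/fl, with 3 libraries of each. GC is a GFP-Cre knocked into Foxd1, a gene of the stromal progenitors, so Cre acts in the stromal lineage and HET and MUT kidneys also lack 1 working Foxd1 allele, while WT kidneys have both. HET against MUT therefore asks about Ntn1 with the Foxd1 allele held equal, and the comparisons with WT differ in both. Nephron cells come from another progenitor pool. The kidneys of a genotype are described as biological replicates, and the labels do not tie a library to a cross or litter. The permutation p-values measure the spread between these samples. Those of the main limma fit measure the spread left after differences between replicate numbers are taken out.

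Nephrons form from Six2-expressing progenitors that cap the tips of the ureteric bud. Under Wnt9b from the bud, progenitors gather into a pretubular aggregate, which becomes a polarised epithelial ball, the renal vesicle, and then a comma-shaped and an S-shaped body. During this step cells switch on Pax8, Lhx1 and Pou3f3, and replace loose mesenchymal contacts with cadherin junctions. Cdh6 is known from the early vesicle and future proximal segments, Cdh1 from distal nephron and ureteric epithelium, and Cdh2 from proximal precursors.

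RefSeq promoters (GRCm38.p6, the assembly also called mm10) were matched for 5 of the 8 genes, Lhx1, Pax8, Pou3f3, Cdh6 and Bmper. The 250 bases before the start are shown for Cdh6, the member that varied most between libraries, for Bmper, which varied least, and for Lhx1, which moved most closely with another member. Capitals mark the 6-letter cores CTTTGA or CTTTGT, or their reverse complements TCAAAG and ACAAAG, to which the TCF/LEF factors of the Wnt pathway are known to bind. The Cdh6 stretch lies at chr15:13173676-13173925 on the minus strand, the Bmper stretch at chr9:23222826-23223075 on the plus strand and the Lhx1 stretch at chr11:84525535-84525784 on the minus strand.
Cdh6: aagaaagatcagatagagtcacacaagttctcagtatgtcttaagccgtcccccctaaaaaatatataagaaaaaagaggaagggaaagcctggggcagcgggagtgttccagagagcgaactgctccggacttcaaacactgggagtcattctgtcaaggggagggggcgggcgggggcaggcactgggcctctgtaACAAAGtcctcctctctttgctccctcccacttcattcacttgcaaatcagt
Bmper: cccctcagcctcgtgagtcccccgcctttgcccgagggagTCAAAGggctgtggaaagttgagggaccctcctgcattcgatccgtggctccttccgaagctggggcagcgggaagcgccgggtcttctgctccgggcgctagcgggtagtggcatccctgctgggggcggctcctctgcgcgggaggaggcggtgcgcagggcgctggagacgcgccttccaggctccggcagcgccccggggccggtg
Lhx1: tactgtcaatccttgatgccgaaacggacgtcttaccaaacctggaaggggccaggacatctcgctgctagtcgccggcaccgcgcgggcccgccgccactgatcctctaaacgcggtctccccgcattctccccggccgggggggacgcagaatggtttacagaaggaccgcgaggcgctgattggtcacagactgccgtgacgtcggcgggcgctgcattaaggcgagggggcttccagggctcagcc

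Cdh6 holds ACAAAG from 52 bases before the start, and Bmper holds TCAAAG from 210 bases before it. No match is in the Lhx1, Pax8 or Pou3f3 windows, counted over 250 bases before to 50 after the start. Over the same 300-base windows, CTTTGA on either strand is in 16.0% and CTTTGT in 18.7% of all 32851 promoters, so such a match is common and is given only as a description. The GC box GGGCGG is in 4 of the 5 member windows, all but Lhx1, and in 35.7% of all promoters. The window of Bmper is 72.7% G and C with 31 CpG pairs, that of Lhx1 65.7% with 31, that of Pou3f3 60.3% with 18, that of Pax8 59.3% with 7 and that of Cdh6 53.0% with 8, against medians of 52.7% and 7 over all promoters.

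The targeted gene was read first. Ntn1 was 26.1, 28.9 and 17.8 FPKM (fragments scaled to transcript length and to the size of the library) in WT, 12.3, 12.0 and 16.5 in HET, and 10.8, 16.5 and 11.0 in MUT. HET and MUT libraries overlapped and all lay below the WT libraries, so whole-kidney Ntn1 separated the Cre-carrying kidneys from WT but not MUT from HET (ratio of means 0.938). Neither difference from WT was called (limma adjusted p=0.995 for MUT and 0.994 for HET). By staining, the paper found little or no netrin-1 protein around the progenitors of MUT kidneys. It also found Ntn1 RNA, to a lesser degree, in the proximal tubule. Foxd1, which carries the Cre, was 33.7, 33.4 and 25.8 FPKM in WT, 21.7, 20.2 and 21.5 in HET and 24.8, 22.5 and 24.3 in MUT, and its WT libraries were likewise above all others. Its MUT libraries also lay above all HET libraries (ratio of means 1.13, limma adjusted p=0.933). Between MUT and HET, the libraries of 9.69% of loci did not overlap, in either direction. Libraries held FPKM sums of 453753 to 545598, and their relative depth, read from the steps between low values, ran from 0.57 (WT-2) and 0.615 (MUT-3) to 1.28 (MUT-1). Genes of nephron progenitors, ureteric bud, podocytes, proximal tubule, stroma and endothelium were present in every library. HET-2 stood apart with a summed level of 6 liver genes of 706 FPKM against 26.9 to 51.6 in the other libraries. Of 6 adrenal cortex markers Cyp21a1 and Cyp11b1 were at 0 in at least 1 library, and the summed level was 2.4 to 3.8 FPKM.

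All 8 genes passed the minimum of a mean of 5 FPKM that the study used, and their order of level was nearly the same in every library. Ccnd1 was highest, with 128 to 164 FPKM over the 9 libraries, and was the only member whose range did not overlap that of its neighbour. Pax8 followed with 33.1 to 55.2 FPKM and was above Cdh1 in 7 of 9 libraries. Cdh1 lay above Pou3f3, Lhx1 above Cdh2, and Cdh2 above Bmper in 9 of 9 libraries each, and Pou3f3 above Lhx1 in 8 of 9. Bmper and Cdh6 could not be ordered, with Bmper above Cdh6 in 5 of 9 libraries. Because FPKM is per length, these levels can be set side by side between genes, but only roughly. The Pou3f3 locus spans 3064 bases, fewer than the annotated gene, and GC content ran from 44.4% (Cdh6 and Cdh2) to 55.6% (Lhx1). Their part in the order of level was not tested.

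**Figure D1:**
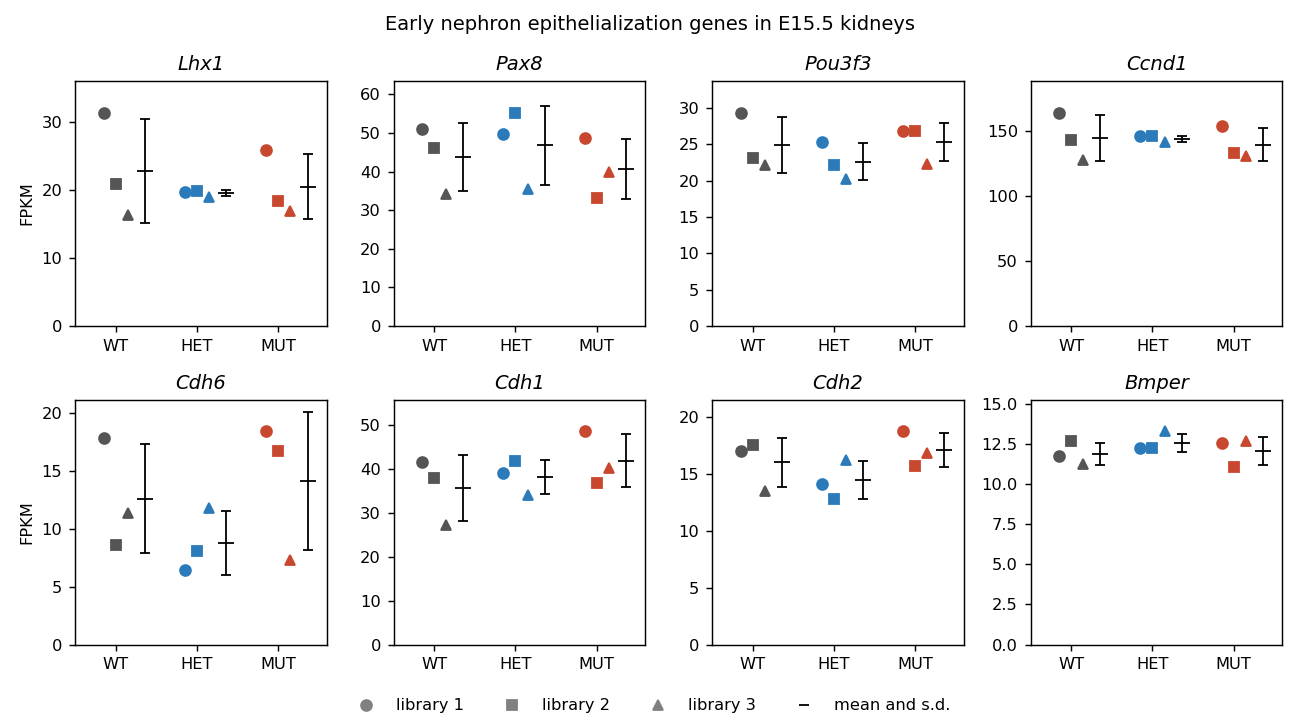
FPKM of each of the 8 genes (vertical axis, starting at 0) in the 3 WT, 3 HET and 3 MUT libraries, with a marker shape for each library number and the mean and s.d. of each genotype drawn beside the points. The libraries of the 3 genotypes overlap for every gene, and Cdh6 spans 6.46 to 18.4 FPKM while Bmper stays between 11.1 and 13.3.

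The transcription factor Lhx1, a LIM homeodomain protein needed for renal vesicle patterning, was 31.4, 20.9 and 16.4 FPKM in WT, 19.7, 19.9 and 19.0 in HET and 25.9, 18.4 and 17.0 in MUT. The means were 22.9±7.67 in WT, 19.6±0.454 in HET and 20.5±4.8 in MUT (mean±s.d., n=3). WT-1 and MUT-1 were the high libraries, and the HET libraries lay so close together that their coefficient of variation was 2.32%, against 33.5% in WT and 23.5% in MUT. MUT differed from HET by 0.04 on the log2(FPKM + 1) scale (SE 0.14, limma adjusted p=0.974), and the 95% interval reached from 0.836 to 1.26 as a ratio. Intervals given as ratios, here and below, are ratios of FPKM + 1. Neither comparison with WT passed the test, with log2 differences of -0.13 for MUT and -0.17 for HET.

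Pax8, a paired-domain factor switched on in the pretubular aggregate, was 51.1, 46.2 and 34.1 FPKM in WT, 49.8, 55.2 and 35.5 in HET and 48.7, 33.1 and 39.9 in MUT. Its mean was 43.8±8.75, 46.8±10.2 and 40.6±7.81 in the 3 genotypes in that order. MUT-2 was the lowest library and HET-2 the highest, and the genotypes overlapped over nearly their whole ranges. The log2 difference of MUT from HET was -0.2 (SE 0.17, limma adjusted p=0.933), with an interval from 0.676 to 1.13 as a ratio. It came from number 2, where MUT was 0.599 of HET, while the ratios of the other pairs were 0.977 and 1.13. HET-2 was also the library with the high liver genes, and their part in its Pax8 level was not tested.

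Pou3f3 encodes a POU-domain factor of the distal and intermediate part of the early nephron. It was 29.3, 23.1 and 22.2 FPKM in WT, 25.3, 22.2 and 20.2 in HET and 26.8, 26.8 and 22.3 in MUT. In each of the 3 same-numbered pairs MUT was above HET, with ratios of 1.06, 1.21 and 1.1, and HET was below WT. The log2 difference of MUT from HET was 0.16 (SE 0.13, limma adjusted p=0.933) and that of HET from WT was -0.13, so neither was larger than the spread between libraries. Of all loci tested 10.5% were higher in MUT than HET in all 3 pairs, and 10.4% lower in HET than WT. MUT and WT had nearly the same mean, 25.3±2.58 and 24.9±3.84 FPKM.

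Ccnd1 encodes cyclin D1, which drives cells from G1 into S phase and is a known Wnt target in the renal vesicle. It was 164, 143 and 128 FPKM in WT, 146, 146 and 142 in HET and 154, 133 and 131 in MUT. The means of 145±17.8, 144±2.48 and 139.5±12.8 FPKM differed by less than the spread of the WT or of the MUT libraries. The log2 difference was -0.05 for MUT against HET (SE 0.16), -0.05 for MUT against WT and 0.00 for HET against WT. As ratios, the 95% intervals ran from 0.757 to 1.23 for MUT to HET and from 0.82 to 1.13 for MUT to WT. As with Lhx1, the HET libraries were the tightest and library 1 was the highest in WT and in MUT.

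Of the cadherins, Cdh6 had the largest fitted difference of any member. Cdh6 encodes K-cadherin, a junction protein of the renal vesicle and proximal precursors, and was 17.8, 8.58 and 11.4 FPKM in WT, 6.46, 8.06 and 11.8 in HET and 18.4, 16.7 and 7.32 in MUT. MUT-1 and MUT-2 lay above every HET library, and MUT-3 lay below HET-2 and HET-3. The mean was 14.1±5.95 FPKM in MUT, 8.78±2.75 in HET and 12.6±4.7 in WT. MUT to HET gave a ratio of means of 1.61, with pair ratios of 2.84, 2.07 and 0.619.

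The log2 difference of Cdh6 between MUT and HET was 0.57 (SE 0.27, unadjusted p=0.0547, limma adjusted p=0.933), and the exact permutation test gave p=0.3. Its 95% interval, 0.991 to 2.23 as a ratio of FPKM + 1, includes 1. The log2 difference of HET from WT was -0.46 (SE 0.24, limma adjusted p=0.994) and that of MUT from WT 0.12. Both values with HET depended on single replicate numbers. The difference of MUT from HET was 0.17 without number 1, 0.38 without number 2 and 1.17 without number 3, and only the last was called (limma adjusted p=0.00389). That of HET from WT was -0.02 without number 1, -0.64 without number 2 and -0.71 without number 3, and again only the last was called (limma adjusted p=0.00321). Each of these fits has 2 libraries a genotype and 1 residual degree of freedom, and those without number 3 called 148 and 125 loci in all.

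Cdh1, encoding E-cadherin, the main adhesion protein of ureteric and distal nephron epithelium, was 41.6, 38.0 and 27.2 FPKM in WT, 39.0, 41.7 and 34.0 in HET and 48.5, 36.7 and 40.2 in MUT. WT-3 was the lowest library and MUT-1 the highest. The means were ordered 35.6±7.46 in WT, 38.2±3.9 in HET and 41.8±6.02 in MUT, but the ranges overlapped. Between MUT and WT the log2 difference was 0.24 (SE 0.13, limma adjusted p=0.995), with an interval of 0.948 to 1.47 as a ratio. Between MUT and HET it was 0.12 (SE 0.15). Cdh1 is also made by the ureteric bud, whose 8 markers summed to 258 to 289.5 FPKM in WT, 283 to 318 in HET and 289 to 329 in MUT with none at 0, and their part in the Cdh1 values was not tested. In whole-kidney RNA, fewer cells of a type and less RNA per cell cannot be told apart, for this gene and the others.

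Cdh2, encoding N-cadherin, an adhesion protein of progenitors and proximal precursors, was 17.0, 17.5 and 13.5 FPKM in WT, 14.1, 12.8 and 16.2 in HET and 18.7, 15.7 and 16.8 in MUT. MUT was above HET in each pair, with ratios of 1.33, 1.22 and 1.04, and the ranges overlapped because HET-3 was above MUT-2. The log2 difference was 0.24 (SE 0.13, unadjusted p=0.0839, limma adjusted p=0.933), and the exact permutation test gave p=0.2. Its interval was 0.975 to 1.42 as a ratio. WT, at 16.0±2.16 FPKM, lay between HET at 14.4±1.67 and MUT at 17.1±1.51.

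Bmper encodes a secreted modulator that binds BMP ligands outside the cell. It was the steadiest member, with 11.8, 12.7 and 11.3 FPKM in WT, 12.3, 12.3 and 13.3 in HET and 12.6, 11.1 and 12.7 in MUT. The log2 difference of MUT from HET was -0.05 (SE 0.12, limma adjusted p=0.962), and the interval ran from 0.8 to 1.16 as a ratio. Against WT the ratio intervals were 0.856 to 1.2 for MUT and 0.902 to 1.23 for HET.

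Between MUT and HET, 0 of 8 members passed limma's test at an adjusted p under 0.05, beside 0.0% of the 10081 loci tested, and 0 of 8 had an unadjusted p under 0.05, beside 4.9% of loci. In this comparison 5 members had a positive and 3 a negative log2 difference, with a median of 0.08 against -0.02 over all loci. For MUT against WT the count was 0 of 8, beside 0.0% of 10096 loci (1.99% with an unadjusted p under 0.05), with 5 positive and 3 negative differences and a median of 0.03. For HET against WT it was 0 of 8, beside 0.0% of 10105 loci (2.31% unadjusted), with 3 positive, 4 negative and 1 at 0.00. These comparisons share libraries with each other, so their values are not independent.

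No member had libraries that did not overlap in any comparison, while 9.69% of loci did so between MUT and HET, 2.65% between MUT and WT and 3.21% between HET and WT. An F test over the 3 genotypes also called 0 of 8 members, beside 0.0% of 10164 loci, with adjusted p from 0.973 to 0.982, and 2.1% of loci had an unadjusted p under 0.05. Between MUT and HET the ratio intervals ran from 0.757 to 1.23 for Ccnd1, 0.8 to 1.16 for Bmper and 0.991 to 2.23 for Cdh6. How large a difference could have gone unseen, in either direction, thus varied with the gene. The intervals are not adjusted for the number of loci tested, so a difference outside them could also go uncalled. An exact permutation test of 3 against 3 libraries cannot give p below 0.1, and the member values gave 0.2 to 1.0.

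**Figure D2:**
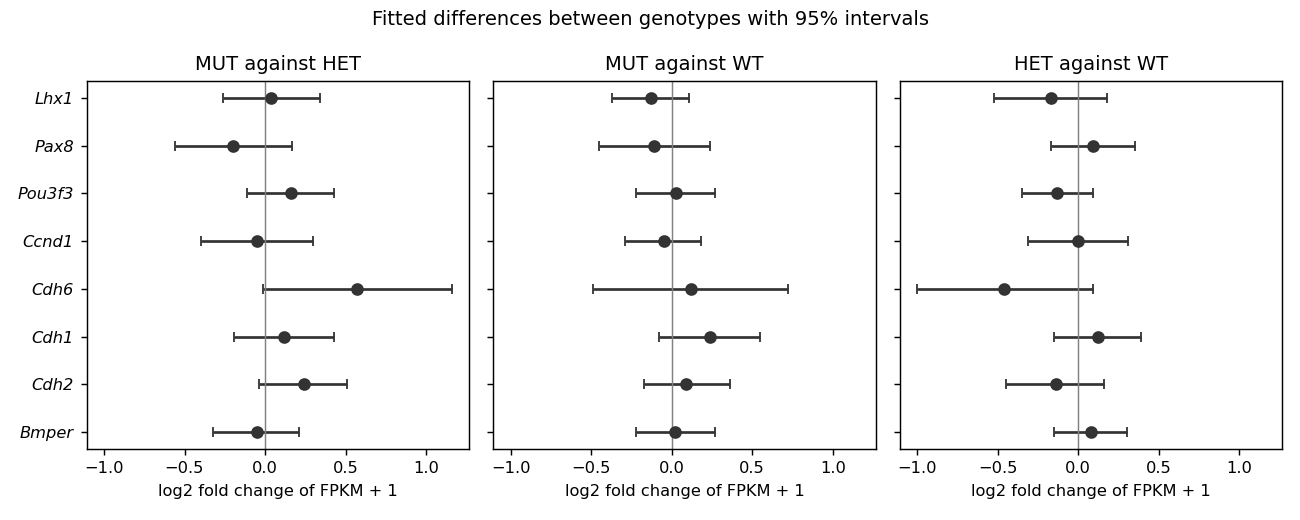
Fitted log2 fold change of FPKM + 1 (horizontal axis) for each gene, with 95% intervals from limma, in the 3 comparisons of genotypes. Every interval includes 0, and those of Cdh6 are the widest, from -0.01 to 1.16 for MUT against HET.

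The members differed widely in how much they varied over the 9 libraries. Cdh6 had a larger s.d. of log2(FPKM + 1) than 98.8% of the 10164 loci at 5 FPKM or more, with 2.84 times between its lowest and highest library. Lhx1 (93.1%), Pax8 (91.8%) and Cdh1 (81.8%) were also among the more variable loci. Cdh2 (57.0%) and Pou3f3 (53.5%) were near the middle, and Ccnd1 (19.1%, 1.28 times) and Bmper (4.58%, 1.19 times) among the steadier. WT-1 and MUT-1 were each the highest library of their genotype for 6 of 8 members, and WT-3 was the lowest WT library for 7 of 8.

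Cdh6 also followed a property of the whole library. Its FPKM was high where the sum of all FPKM was low, with Pearson's r of -0.88 and Spearman's rho of -0.82 over 9 libraries, and r of -0.76 without the 2 farthest libraries. Only 2.27% of expressed loci had a lower r. Within each of the 3 genotypes the order of Cdh6 was the reverse of the order of the FPKM sum, which held for 207 loci (2.04%) and for no other member. Cdh6 also had r of 0.61 with relative depth. The 5 podocyte markers, none at 0, summed to 145, 84.5 and 100.3 FPKM in WT, 85.7, 101 and 68.4 in HET and 117, 135 and 68.2 in MUT. MUT-3 was the lowest MUT library for both, while HET-3 was lowest in HET for the markers and highest for Cdh6, and MUT-2 was the highest MUT library for the markers but not for Cdh6. The part of the FPKM sum, of depth and of podocyte content in the Cdh6 values was not tested.

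Lhx1 had r of -0.7 with the FPKM sum, but without WT-1 and MUT-1 this was 0.39, so it rested on those 2 libraries. Leaving out the shallow libraries WT-2 and MUT-3 moved the Cdh6 log2 difference of MUT from HET to 0.96 (limma adjusted p=0.181, no block). This setting was chosen after the data were seen.

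**Figure D3:**
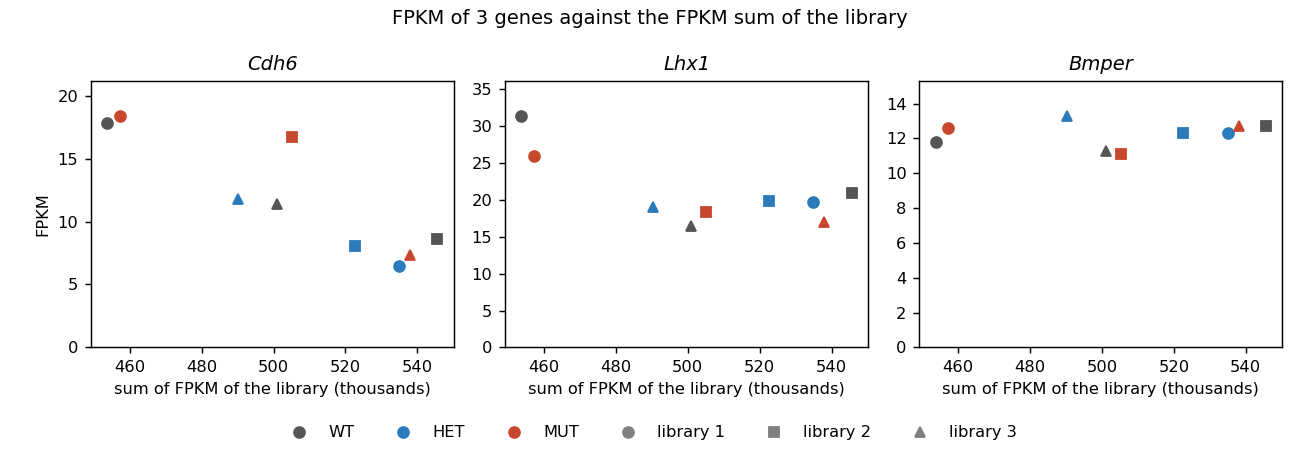
FPKM of Cdh6, Lhx1 and Bmper (vertical axes, starting at 0) against the sum of FPKM over all loci of the library (horizontal axis), coloured by genotype and shaped by library number. Cdh6 falls from 18.4 to 6.46 FPKM as the sum rises (r=-0.88), Lhx1 is high in the 2 libraries with the lowest sums, and Bmper is flat (r=0.16).

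Across the 9 libraries the members mostly moved together. Of 28 pairs of members 25 had a positive r on log2(FPKM + 1), with a median of 0.42, and these points share libraries, depth and scaling. The share over pairs of all expressed loci is not given, so the count is not shown to be particular to the members. Lhx1 and Ccnd1 were the closest pair, with r of 0.95, and 0.99 after the genotype means were subtracted. Pax8 and Ccnd1 had r of 0.77, and Cdh1 and Pax8 0.71, which became 0.94 within genotypes. Negative values were those of Pou3f3 with Bmper (-0.49), Cdh6 with Bmper (-0.38) and Cdh6 with Pax8 (-0.2). Lhx1, Ccnd1, Pax8 and Cdh1 thus tended to be high in the same libraries, and Cdh6 and Bmper were the members least like the rest.

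**Figure D4:**
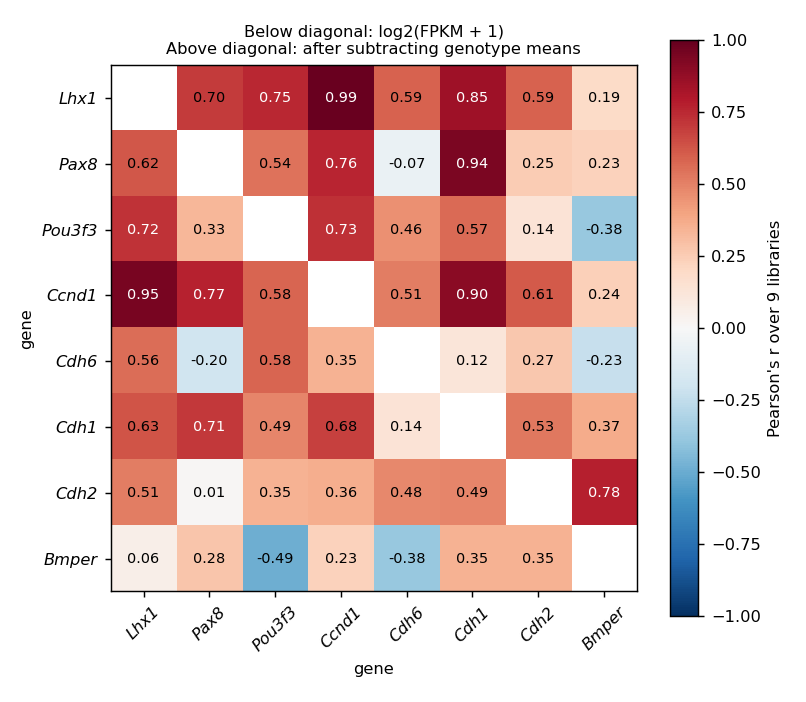
Pearson's r between each pair of the 8 genes over 9 libraries, on log2(FPKM + 1) below the diagonal and after subtraction of genotype means above it, with colour from -1 (blue) to 1 (red). Lhx1 and Ccnd1 show the highest value (0.95), and Pou3f3 and Bmper the lowest (-0.49).

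The loci most like each member were mostly not genes of the nephron lists. For Lhx1 they were Wipi2 (r=0.98), Pitpnm1 (0.97) and Map3k1 (0.97), and for Pax8 Atad3a, Ampd2 and Gtf2ird2 (0.98 each). Pou3f3 was closest to Rgl2 (0.98), the joined locus of Mir8104 and Ppm1h (0.96) and Cnnm2 (0.95). Ccnd1 was closest to Slc25a25 (0.98) and Frmd4a (0.96), and then to Lhx1. Among cadherins, Cdh6 was closest to Sos2 (1.0), 4930402H24Rik and Gfpt1 (0.99 each), Cdh1 to E130309D02Rik, Ngfr (0.98 each) and Kdm4b (0.97), and Cdh2 to Hnrnpd, Prr12 and Ttc28 (0.97 each). Bmper was closest to Cdc25a (0.97), Sorcs2 (0.93) and Gfra1 (0.92). These are the highest r of 10164 loci over only 9 points.

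Ratios within a library remove its scaling. The E-cadherin to N-cadherin ratio, read as log2 of Cdh1 to Cdh2, was 1.14±0.14 in WT, 1.41±0.32 in HET and 1.29±0.08 in MUT, and overlapped in all comparisons (exact permutation p of 0.3 to 0.6). Log2 of Cdh6 to Cdh1 was -1.54±0.52 in WT, -2.16±0.56 in HET and -1.67±0.7 in MUT (exact permutation p of 0.2 to 0.7). Neither junction ratio separated any pair of genotypes.

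The early nephron factors were also set against Six2, which keeps progenitors undifferentiated. The paper's staining places Lhx1 protein in the ureteric collecting duct system as well as in developing nephrons. A whole-kidney ratio therefore does not measure induced against self-renewing cells, and the part of other cells in it was not tested. Six2 itself was 81.2, 87.9 and 57.8 FPKM in WT, 95.6, 79.4 and 82.3 in HET and 95.5, 89.7 and 107 in MUT. In sections at E15.5, the paper counted no significant difference in Six2-positive cells per niche between control and MUT kidneys. It described nephron formation at birth as qualitatively normal by Lhx1 and Wt1 staining. Log2 of Pax8 to Six2 was -0.67, -0.93 and -0.76 in WT, -0.94, -0.52 and -1.21 in HET and -0.97, -1.44 and -1.42 in MUT. Every MUT library lay below every WT library, a mean difference of -0.49, and the exact permutation test gave p=0.1, the smallest it can give with 3 against 3. MUT was also below HET in 3 of 3 pairs, with overlapping ranges, a difference of -0.38 and an exact permutation p of 0.2. That difference was -0.12 without replicate number 2 and -0.24 with a correction for GC content. All 3 pairs also went one way in other ratio comparisons. These were Pax8 to Six2 and Lhx1 to Six2 for MUT against WT, and Cdh6 to Cdh1 for HET against WT. Cdh1 to Cdh2 did so for MUT and for HET against WT. Log2 of Lhx1 to Six2 differed by -0.52 between MUT and WT (exact permutation p=0.2) and by -0.14 between MUT and HET (p=0.6). Six2 libraries did not overlap between MUT and WT either (means of 97.3 and 75.6 FPKM, limma adjusted p=0.995), while Pax8 itself differed by -0.11 with overlapping libraries. Over the 12 ratio comparisons, 4 ratios in 3 pairs of genotypes, the smallest adjusted permutation p was 0.45 (Benjamini-Hochberg), and the exact test cannot go below 0.1 before adjustment.

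**Figure D5:**
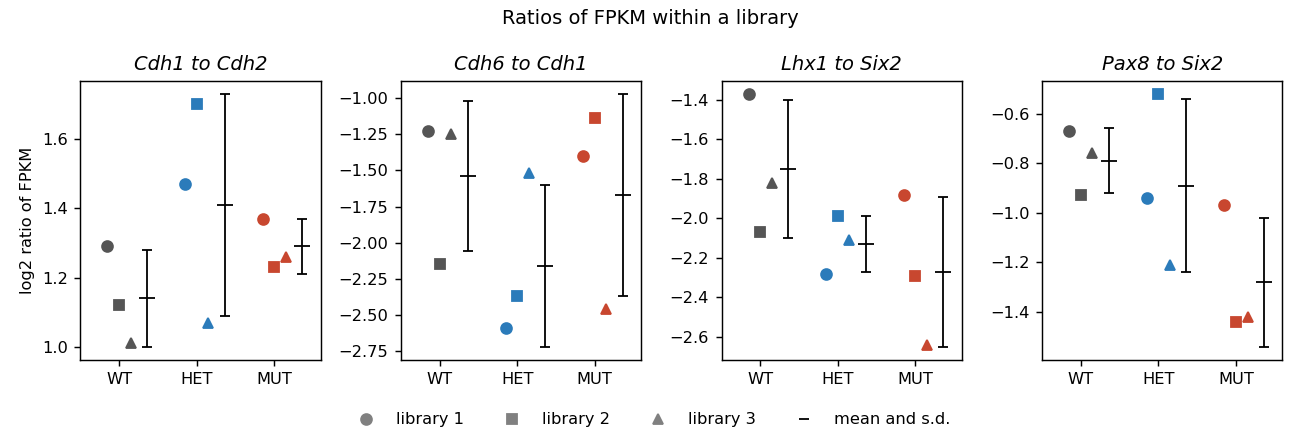
Log2 ratio of FPKM of 2 genes within each library (vertical axes, which do not start at 0) in WT, HET and MUT, with mean and s.d. beside the points. Only for Pax8 to Six2 do the MUT libraries (-1.44 to -0.97) all lie below the WT libraries (-0.93 to -0.67).

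Other genes of the same steps were counted by list, and 0 genes of any list passed limma's test in any comparison, beside the 0.0% of all loci. For the tallies of sign between MUT and HET below, 45.9% of all loci had a positive log2 difference. Of 16 tested genes of the pretubular aggregate and renal vesicle 7 had a positive and 9 a negative log2 difference of MUT from HET, with a median of 0.00. Pax2, a paired-domain paralogue of Pax8, had the smallest p of that list, with 0.38 (SE 0.14, unadjusted p=0.0178, limma adjusted p=0.933). Dkk1, a secreted Wnt inhibitor, had -0.25 and Tmem100 -0.23. Npy, a neuropeptide gene, had -0.5, with 17.4 FPKM in HET-2, the library with high liver genes, against 8.48 and 6.19 in the other HET libraries and 5.21 to 8.09 in MUT.

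Of 13 tested genes of the comma- and S-shaped bodies 10 were positive and 3 negative between MUT and HET, with a median of 0.15. Between HET and WT 6 were positive and 7 negative. The next values are again for MUT against HET. Irx1 and Irx3, homeobox genes of the middle segment, had 0.23 each (SE 0.12), and Hnf4a, a proximal factor, had 0.22 (SE 0.13). Of 12 progenitor genes 8 were positive and 4 negative (median 0.07), with Hoxd11 at 0.31, Six2 at 0.18, Hoxa11 at 0.14 and Osr1 at -0.15. For these lists the adjusted p was 0.933 or more in MUT against HET.

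For the junction genes, the cadherin and catenin list had 6 positive and 4 negative of 10 tested, with a median of 0.06. Cdh5, of endothelium, had 0.26, Cdh4 0.23, Jup, encoding plakoglobin, 0.2, and Ctnna1, encoding α-catenin, -0.13. Apical-basal polarity genes were positive in 10 of 11 between MUT and HET (median 0.15) and negative in 10 of 11 between HET and WT (median -0.09), beside 45.9% of all loci positive in the first and 52.4% positive in the second. These comparisons share the HET libraries with opposite sign, so the tallies are not independent. Scrib, a basolateral scaffold gene, had 0.36 (SE 0.13, unadjusted p=0.018, limma adjusted p=0.933), and was followed by Pard3 with 0.23, Llgl1 with 0.21 and Pard6b with 0.18. The transcriptional regulators of E-cadherin were 4 positive and 4 negative of 8, with Zeb2 at 0.18, Tcf3 at 0.16, Ovol1 at -0.14 and Esrp1 at -0.11.

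The partners of cyclin D1 and of Bmper gave small values. Of 13 genes of the cyclin D and RB pathway 11 were positive and 2 negative with a median of 0.04, among them the sister cyclins Ccnd2 at 0.18 and Ccnd3 at -0.15, the kinase gene Cdk4 at -0.21 and the pocket-protein gene Rbl1 at 0.12. Only 6 of 15 BMP ligands and extracellular modulators reached the FPKM minimum, and 5 were positive and 1 negative with a median of 0.1. Of these Twsg1 had 0.23, the ligand gene Bmp7 0.21, Nbl1 0.2 and the ligand gene Bmp4 -0.05. Of 5 tested paralogues and cofactors of the PAX, POU and LIM factors 4 were positive and 1 negative (median 0.13), with Ldb2 at 0.16, Ssbp3 at 0.13 and Paxip1 at 0.12.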

How the data were processed

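RNA of whole E15.5 kidneys was sequenced from poly(A) libraries made with a stranded kit. Per the methods and processing notes, the authors used the STAR aligner on mm10, built transcripts by Cufflinks and cuffmerge, and took FPKM from Cuffdiff. The deposited values of 24138 loci entered unchanged. Tool versions are not given in the sources used here. Read numbers are unknown, so no counting error is given, and precision comes from the spread of 3 libraries. FPKM is relative to the whole library, so a change in very abundant RNAs shifts the other values.

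Groups came from the labelled genotypes. Loci whose mean reached 5 FPKM in 1 of the genotypes compared were tested on log2(FPKM + 1), a scale that understates changes of low genes, with limma 3.58.1 (lmFit, eBayes with trend, R 4.3.3), two-sided, with Benjamini-Hochberg adjustment over all loci tested and a threshold of 0.05. Replicate number was a block, since the tests in the study's own tables pair same-numbered libraries. Single values and log2 ratios were compared by two-sided exact permutation tests in scipy 1.17.1. The members and lists were chosen with earlier results of these data known. List genes named are the 4 with the smallest unadjusted p between MUT and HET in each list. One gene this rule names is not reported here. Genes named as most like a member are the 3 loci with the highest r. Afdn, Patj and Hbb-bt were not matched by symbol, and Hba-a1 and Hba-a2, at several loci, were not used. The fit was tested on simulated data. Alternatives were other pseudocounts (0.1 and 3), FPKM minimums (1 and none), rescalings, no block, no trend, a GC correction, all 9 libraries in 1 fit and each replicate number left out.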

Additional observations from a re-analysis of the deposited data

How the results depend on the processing

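Of 24 log2 differences (8 genes in 3 comparisons), 9 reversed under at least 1 of the 14 alternatives. Of the other 15, Ccnd1 between HET and WT had a difference of 0.00 and so no direction to lose (-0.07 to 0.08 with a number left out). Rescaling by quantiles moved Ccnd1 between MUT and HET from -0.05 to 0.04, and the other reversals came from leaving out 1 replicate number. Between MUT and HET, the ranges over numbers left out were -0.13 to 0.14 for Lhx1, -0.38 to 0.07 for Pax8, -0.12 to -0.01 for Ccnd1 and 0.17 to 1.17 for Cdh6. Between MUT and WT they were -0.27 to 0.07 for Pax8, -0.06 to 0.1 for Pou3f3, -0.27 to 0.46 for Cdh6, -0.01 to 0.21 for Cdh2 and -0.04 to 0.12 for Bmper. Between HET and WT they were -0.36 to 0.07 for Lhx1 and -0.71 to -0.02 for Cdh6. Cdh6 without number 3 was the only member called in any alternative. The log2 ratios ranged from -0.28 to 0.05 (Cdh1 to Cdh2, MUT against HET), -0.69 to 0.42 (Cdh6 to Cdh1, MUT against WT), -0.41 to 0.05 (Lhx1 to Six2, MUT against HET) and -0.36 to 0.07 (Pax8 to Six2, HET against WT). With the GC correction, Pax8 to Six2 between MUT and WT was -0.42 (exact permutation p=0.2).

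Loci called numbered 0 in each main comparison. With a number left out they ranged from 30 to 148 (MUT against HET), 1 to 168 (MUT against WT), 1 to 125 (HET against WT) and 0 to 16 (3 genotypes), in fits that leave 1 residual degree of freedom between a pair of genotypes. Without WT-2 and MUT-3, chosen after the data were seen, they were 3, 32, 3 and 2. The counts were 0 under the remaining alternatives.

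Same-numbered libraries did not deviate together between MUT and HET (mean r of -0.124, against 0.062 for different numbers), nor between HET and WT (-0.027 against 0.011), and only slightly between MUT and WT (0.089 against -0.042). With no replicate block, loci called were 0 in each comparison, and 636 (6.31%), 65 (0.644%) and 108 (1.07%) had an unadjusted p under 0.05, against 494, 201 and 233 with the block. The Cdh6 difference between MUT and HET without the block was 0.57 (limma adjusted p=0.738), and no member was called. Read numbers are unknown, and a limit set by depth was not tested.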
